A study of Mus musculus with 17 samples.

Results

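The Hox genes of the 4 mammalian clusters were examined in C2C12 cells, a mouse myoblast line. Members were all rows of the deposited gene count table whose symbol was Hoxa, Hoxb, Hoxc or Hoxd followed only by digits. There were 29 such genes among the 15062 in the table, 11 of HoxA, 8 of HoxB, 9 of HoxC and 1 of HoxD (Hoxd9). The annotation lists 39 Hox cluster genes. The other 10 (Hoxb1, Hoxb2 and the HoxD genes except Hoxd9) were not analysed here.

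The study compared C2C12 lines grown in medium with 10% fetal bovine serum, each labelled by the construct it expressed. The control line was labelled pMSCV, the name of a retroviral vector, and a second line SRF, for serum response factor. The other 4 carried fusions of SRF with a partner gene from soft tissue tumours: SRF-RELA, SRF-PDGFRB, SRF-ICA1L and SRF-FOXO1. All 6 lines share the C2C12 background. RNA was sequenced from 17 libraries, 3 for each line except SRF-PDGFRB with 2. The promoter driving each construct, whether a line was a clone or a pool, and whether replicates were separate cultures, are not given in the sources used here, so p-values measure only the spread between these libraries.

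Hox genes encode homeodomain transcription factors that give cells their position along the body axis and the limbs. Within a cluster the genes lie in the order of their paralog numbers, and low-numbered genes are used nearer the head than high-numbered ones. Polycomb proteins keep clusters silent and Trithorax proteins keep them active, so cultured cells tend to keep the Hox pattern of the place they came from. Myoblasts from limb and trunk carry such a pattern, which is one reason to read the clusters in a myoblast line.

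Promoter sequence was taken from RefSeq (GRCm38.p6), whose table held a window for 13 of the 29 genes, 9 of them in HoxA and 2 in HoxB. The 250 bases before the start site are shown for both HoxB genes, because HoxB differed more between the lines than HoxA and HoxC, and for 1 of the 2 windows of Hoxa10, an abundant gene of HoxA, whose summed level stayed near that of the control. Hoxb8 is at chr11:96281655-96281904 (plus strand), Hoxb4 at chr11:96318017-96318266 (plus strand) and Hoxa10 at chr6:52240855-52241104 (minus strand), and none of the 3 overlaps an annotated exon. All are written 5′ to 3′, and capitals mark matches to the motifs described after them.
Hoxb8: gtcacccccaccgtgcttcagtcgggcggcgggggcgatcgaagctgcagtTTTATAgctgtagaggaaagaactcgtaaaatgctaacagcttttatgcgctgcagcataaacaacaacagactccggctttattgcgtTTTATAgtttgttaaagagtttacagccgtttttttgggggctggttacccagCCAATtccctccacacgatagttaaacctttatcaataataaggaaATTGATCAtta
Hoxb4: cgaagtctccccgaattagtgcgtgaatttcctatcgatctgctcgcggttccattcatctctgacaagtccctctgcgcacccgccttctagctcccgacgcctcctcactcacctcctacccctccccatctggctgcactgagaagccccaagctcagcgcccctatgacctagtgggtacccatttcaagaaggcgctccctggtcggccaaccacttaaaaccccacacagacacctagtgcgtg
Hoxa10: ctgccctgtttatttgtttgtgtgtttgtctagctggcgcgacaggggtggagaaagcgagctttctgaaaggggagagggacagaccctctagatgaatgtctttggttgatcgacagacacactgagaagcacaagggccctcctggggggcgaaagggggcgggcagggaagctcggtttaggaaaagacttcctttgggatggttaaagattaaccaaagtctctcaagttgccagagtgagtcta

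The motifs searched on both strands were TATAAA (the TATA box), CCAAT (the CCAAT box), TGATNNAT (a site for PBX and HOX protein pairs), CAGCTG (an E-box bound by myogenic factors) and the CArG box bound by SRF. The Hoxb8 window held TATAAA on the reverse strand with first bases at -199 and -110 from the start site, CCAAT at -57 and TGATNNAT on the reverse strand at -11, none overlapping another. The windows of Hoxb4 and Hoxa10 shown held none of the 5 motifs, and no Hox window held a CArG box. The Hoxa10 window not shown held TATAAA at -160 and CCAAT at -64, both on the reverse strand. Of 14 Hox windows, 6 held CCAAT, 3 held CAGCTG, 2 held TATAAA and 2 held TGATNNAT. Over all 32851 promoters the same search found TATAAA in 12.4%, CCAAT in 33.8%, TGATNNAT in 7.68%, CAGCTG in 13% and the CArG box in 1.47%. These matches describe the letters of the windows only.

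Library totals ran from 20901442 to 23543734 counts. The Srf gene was at 678 to 1670 CPM (counts per library after TMM scaling to a common depth) in the SRF libraries, against 66.6 to 93.8 CPM in the control. It was at 71.8 to 105 CPM in SRF-FOXO1, 70.5 to 81.4 CPM in SRF-PDGFRB, 121 to 279 CPM in SRF-ICA1L and 85.0 to 155 CPM in SRF-RELA. The Srf level therefore sets the SRF line apart. Its ranges in SRF-FOXO1, SRF-PDGFRB and SRF-RELA overlap that of the control, so it does not check those labels. The myoblast label was checked with 6 markers, of which all 6 were in the table and Myod1 ranged from 5.69 to 111 CPM over the libraries. Endothelial Pecam1 and Kdr, blood Ptprc and Cd3e, fat Adipoq, Plin1 and Cidec, and neural Sox10 and Elavl3 were not in the table.

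Posterior HoxC and HoxA genes dominated the Hox expression of the line. Per kilobase of exon, Hoxc10 was the highest member at a mean of 29.4 CPM per kb over the 17 libraries, followed by Hoxc11 (17.3 CPM per kb), by Hoxa10 and by Hoxa11 (10.1 CPM per kb). These paralog groups pattern the lumbar and sacral axis and the limbs. Hoxb9 was the highest HoxB gene at 3.84 CPM per kb and ranked 11 of 29. The lowest members were Hoxd9 (0.0895 CPM per kb), Hoxb3 (0.205) and Hoxb5 (0.337). In HoxA the highest mean CPM was that of Hoxa9 (41.3) and the lowest that of Hoxa4 (0.570); in HoxB they were Hoxb9 (9.89) and Hoxb3 (0.873), and in HoxC Hoxc10 (56.2) and Hoxc12 (1.20).

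**Figure D1:**
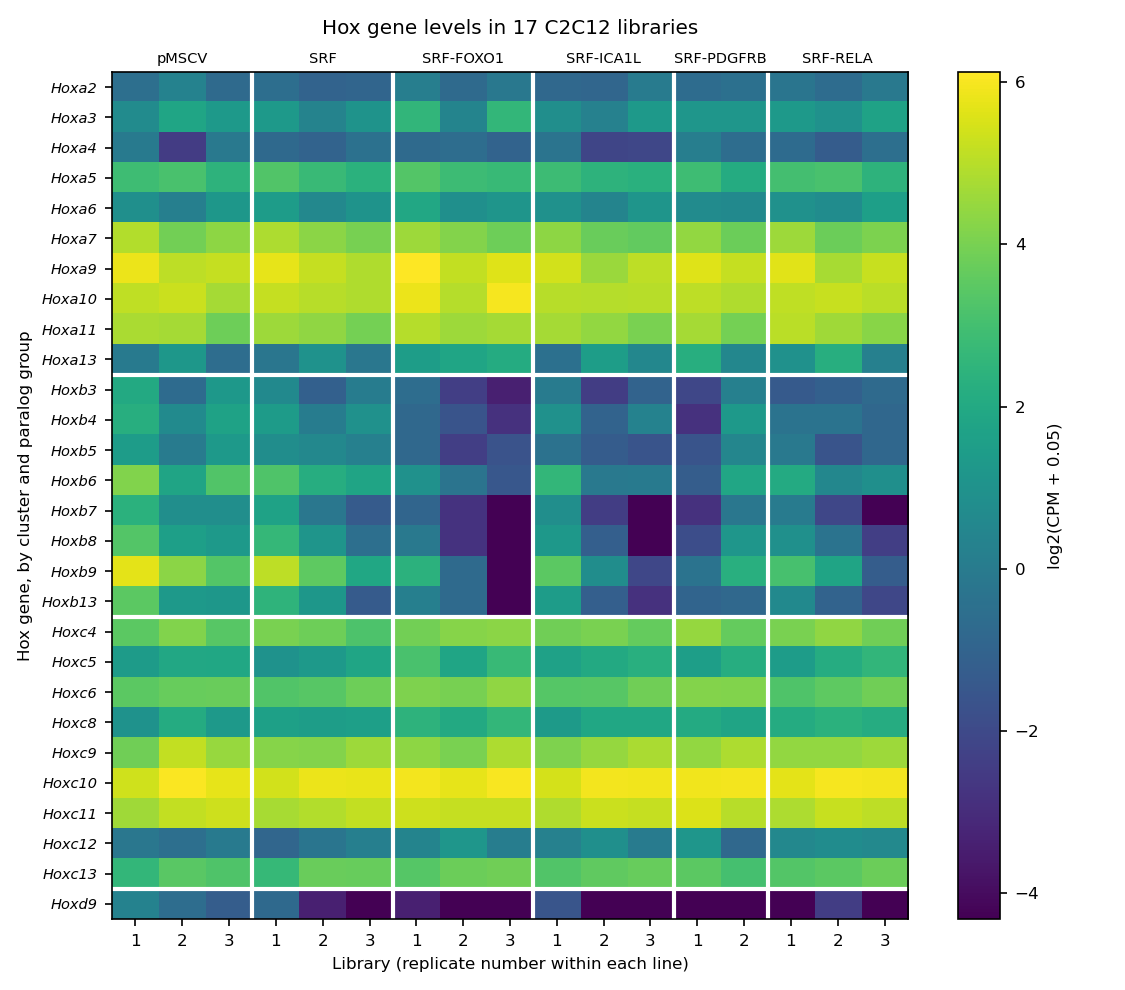
Level of 28 of the 29 Hox genes (rows, by cluster and paralog group) in each of the 17 libraries (columns, by line and replicate number), as log2(CPM + 0.05). HoxB rows are darker (lower) in most fusion libraries than in pMSCV, most of all in SRF-FOXO1 replicate 3, while most HoxA and HoxC rows keep a like colour across the lines.

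Among the 3 clusters with several genes in the table, HoxB was the one whose summed level differed most between the lines. Summed over its 8 genes, HoxB came to 58.6 ± 42.9 CPM in pMSCV. In SRF the sum was 33.6 ± 27.2 CPM (SD, n = 3 each). In the fusion lines it was at 11.7 ± 13.8 CPM (SRF-ICA1L), 10.2 ± 7.76 CPM (SRF-RELA) and 4.82 ± 5.54 CPM (SRF-FOXO1; SD, n = 3 each), and at 9.60 ± 10.1 CPM in SRF-PDGFRB (SD, n = 2). The SD within a line ranged from below its mean (pMSCV, SRF and SRF-RELA) to above it (SRF-FOXO1, SRF-ICA1L and SRF-PDGFRB), and replicates differed several-fold. The single-library sums were 108, 33.2 and 34.4 CPM in pMSCV replicates 1, 2 and 3, against 11.1, 2.63 and 0.714 CPM in SRF-FOXO1. They were 27.6, 4.47 and 3.11 CPM in SRF-ICA1L and 18.9, 7.53 and 4.06 CPM in SRF-RELA. All 9 of these fusion libraries lay below every pMSCV library. In bulk RNA, fewer cells that express a gene and less RNA per cell cannot be told apart.

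HoxA and HoxC sums stayed close to those of the empty vector line. HoxA was at 137 ± 27.1 CPM in pMSCV, and group means of the other lines ran from 84.1% of it in SRF-ICA1L to 123% in SRF-FOXO1. HoxC was at 154 ± 37.0 CPM in pMSCV (SD, n = 3), and the others ran from 93.7% in SRF to 118% in SRF-FOXO1. For HoxB the same figures were 57.3% (SRF), 20% (SRF-ICA1L), 17.3% (SRF-RELA), 16.4% (SRF-PDGFRB) and 8.23% (SRF-FOXO1). HoxB therefore supplied 9.35% to 27.7% of all Hox counts in the pMSCV libraries and 0.191% to 2.80% in the SRF-FOXO1 libraries. The exact binomial (Clopper-Pearson) 95% interval was 26.8 to 28.7% for the highest pMSCV share and 0.109 to 0.309% for the lowest SRF-FOXO1 share, and it covers counting error only.

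**Figure D2:**
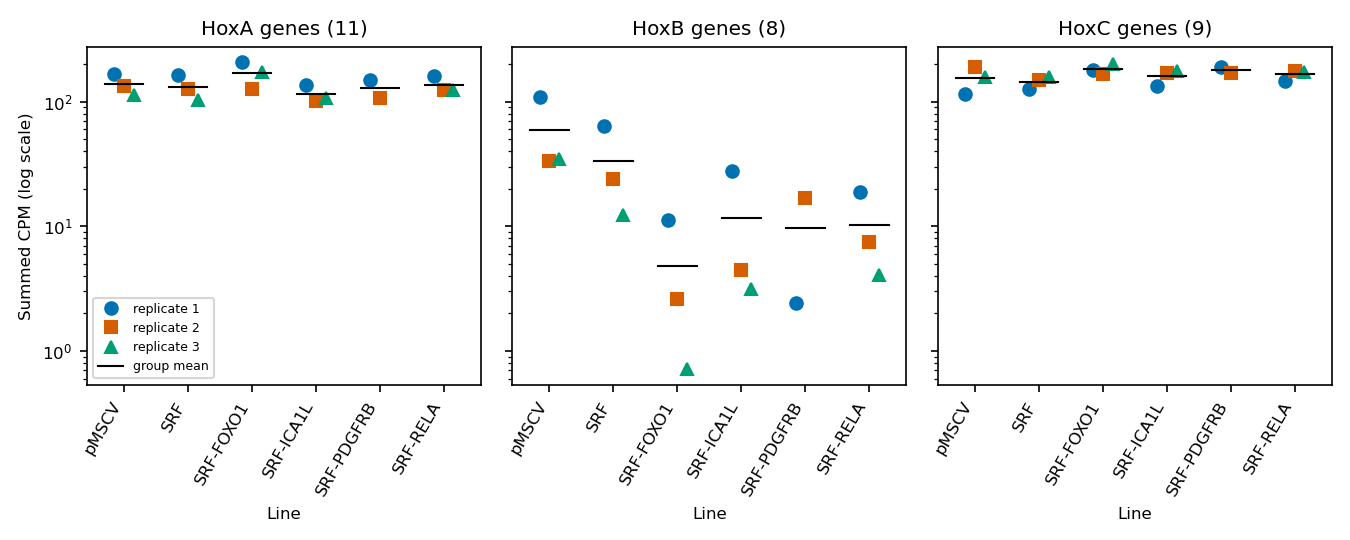
Summed CPM of the HoxA (11), HoxB (8) and HoxC (9) genes on a log scale, 1 point per library, with colour and shape by replicate number and a line at each group mean. HoxB runs from 108 CPM in pMSCV replicate 1 to 0.714 CPM in SRF-FOXO1 replicate 3, while HoxA and HoxC each stay within a narrow band.

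The 4 high-numbered HoxB genes were Hoxb7, Hoxb8, Hoxb9 and Hoxb13. Hoxb9, a gene of the lower trunk and the most abundant of the cluster, had 1140, 447 and 216 counts in pMSCV replicates 1, 2 and 3 and 747, 253 and 84 in SRF. It had 118, 12 and 0 counts in SRF-FOXO1, 235, 38 and 4 in SRF-ICA1L, 16 and 106 in SRF-PDGFRB and 172, 74 and 8 in SRF-RELA. All 3 SRF-FOXO1, all 3 SRF-RELA and both SRF-PDGFRB libraries were below the lowest pMSCV library, while SRF-ICA1L replicate 1 lay within the pMSCV range. Hoxb8, a neighbour of Hoxb9 also used in the trunk, had 219, 67 and 52 counts in pMSCV and 136, 47 and 15 in SRF. In the fusions it had 20, 2 and 0 (SRF-FOXO1), 48, 9 and 0 (SRF-ICA1L), 38, 16 and 3 (SRF-RELA) and 5 and 49 (SRF-PDGFRB), so that all 11 fusion libraries were below the pMSCV libraries.

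Hoxb7, also a trunk gene, had 111, 39 and 37 counts in pMSCV, 71, 18 and 8 in SRF and 11, 2 and 0 in SRF-FOXO1. Its counts were 36, 3 and 0 in SRF-ICA1L, 2 and 19 in SRF-PDGFRB and 20, 4 and 0 in SRF-RELA, and SRF-ICA1L replicate 1 came within the pMSCV range in CPM. Hoxb13, the last gene of the cluster, is known from the tail end of the axis and the prostate, and stands apart from the other HoxB genes by a long gap. It had 243, 55 and 49 counts in pMSCV, 121, 49 and 8 in SRF, 25, 12 and 0 in SRF-FOXO1, 56, 9 and 2 in SRF-ICA1L, 10 and 12 in SRF-PDGFRB and 31, 10 and 4 in SRF-RELA. SRF-FOXO1, SRF-PDGFRB and SRF-RELA libraries lay below all pMSCV libraries, while SRF and SRF-ICA1L overlapped with pMSCV.

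The 4 lower-numbered genes were Hoxb3, Hoxb4, Hoxb5 and Hoxb6, used nearer the head and neck. Hoxb6 was the most abundant, with 385, 76 and 211 counts in pMSCV, 211, 99 and 77 in SRF and 43, 16 and 7 in SRF-FOXO1. Its counts were 123, 20 and 20 in SRF-ICA1L, 8 and 80 in SRF-PDGFRB and 85, 30 and 38 in SRF-RELA. SRF-FOXO1 was the line whose Hoxb6 libraries lay wholly below pMSCV. Hoxb5 had 59, 22 and 53 counts in pMSCV, 37, 31 and 26 in SRF, 12, 3 and 6 in SRF-FOXO1, 15, 8 and 6 in SRF-ICA1L, 6 and 30 in SRF-PDGFRB and 18, 6 and 11 in SRF-RELA. SRF-FOXO1, SRF-ICA1L and SRF-RELA were all below pMSCV and below SRF in every library for this gene.

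Hoxb4, known for its use in blood stem cells, had 100, 35 and 69 counts in pMSCV, 58, 22 and 43 in SRF, 12, 6 and 2 in SRF-FOXO1 and 40, 10 and 26 in SRF-ICA1L. It had 15, 16 and 11 counts in SRF-RELA and 2 and 56 in SRF-PDGFRB. Hoxb3, a gene of the hindbrain and neck, had 88, 13 and 50 counts in pMSCV, 33, 9 and 23 in SRF, 14, 3 and 1 in SRF-FOXO1, 20, 3 and 10 in SRF-ICA1L, 4 and 25 in SRF-PDGFRB and 7, 9 and 12 in SRF-RELA. SRF-FOXO1 and SRF-RELA libraries lay below all pMSCV libraries for Hoxb4, and SRF-RELA libraries for Hoxb3. Antisense Hoxb3os covers 52.9% of the exon bases of Hoxb3, and whether counting used the strand is not given in the sources used here, so the Hoxb3 values are uncertain.

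SRF-FOXO1 was the line with the lowest HoxB levels against pMSCV. In the fit of all 17 libraries without a replicate term, all 8 HoxB genes were lower in SRF-FOXO1, with log2 fold changes of -2.70 ± 0.68 (Hoxb5, SE), -3.36 ± 0.92 (Hoxb4), -3.39 ± 1.02 (Hoxb6), -3.09 ± 0.97 (Hoxb3), -3.97 ± 1.54 (Hoxb8), -3.25 ± 1.34 (Hoxb13), -3.85 ± 1.58 (Hoxb7) and -3.84 ± 1.60 (Hoxb9). None passed the test: 0 of the 29 Hox genes had a Benjamini-Hochberg adjusted p under 0.05 in the quasi-likelihood test of edgeR, where 0.71% of all genes did. The adjusted p of the HoxB genes ran from 0.0593 (Hoxb5) to 0.190 (Hoxb9). With an unadjusted p under 0.05 as the threshold, 14 of 29 Hox genes passed against 20.9% of all genes. All 8 HoxB genes were among the 10 lower ones, where 10.6% of all genes were lower. DESeq2 called 5 genes, all lower (Hoxb3, Hoxb4, Hoxb5, Hoxb6 and Hoxb8), where it called 9.07% of all genes. The median log2 fold change was -3.38 for HoxB, 0.25 for HoxA and 0.53 for HoxC, against 0.00077 over all genes. Groups did not overlap for 7 of the 8 HoxB genes (all but Hoxb3), where 11.6% of all genes were lower without overlap.

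Leaving out each library of SRF-FOXO1 and pMSCV in turn gave HoxB medians from -4.42 to -2.85 and 0 to 2 calls, with 2 (Hoxb5 lower and Hoxc8 higher) without pMSCV replicate 2 and 1 (Hoxa10 higher) without SRF-FOXO1 replicate 2. Over all 6 groups together, 0 of 29 Hox genes were called for any difference by edgeR, where 0.0797% of all genes were, and 6 had an unadjusted p under 0.05, where 8.68% of all genes did. Hoxb5 had the lowest p of them (0.00688, adjusted p = 0.352), and DESeq2 called 2 Hox genes against 4.22% of all genes.

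HoxB was lower in SRF-RELA and SRF-ICA1L too, and here the calls depended on using the replicate numbers as pairs. In the fit without a replicate term, edgeR called 0 of 29 Hox genes and 0% of all genes in either line. DESeq2 also called 0 Hox genes, against 0.324% of all genes in SRF-ICA1L and 0.712% in SRF-RELA. The unadjusted p of edgeR was under 0.05 for 2 Hox genes in SRF-ICA1L (6.23% of all genes) and for 7 in SRF-RELA (8.05% of all genes). The lowest p belonged to Hoxb5 in both, at -2.18 ± 0.66 (SE, adjusted p = 0.662) and -1.88 ± 0.65 (adjusted p = 0.500). Same-numbered libraries of pMSCV, SRF-RELA, SRF-ICA1L and SRF deviated together, and a block for replicate number was therefore also fitted in these 12 libraries. With it, 7 of 8 HoxB genes fell in SRF-ICA1L and 8 of 8 in SRF-RELA, where 1.65% and 3.29% of all genes fell. None of the other HoxA, HoxC or HoxD members was called by edgeR in either line. DESeq2 with the block called 9 Hox genes in SRF-ICA1L (all 8 of HoxB and Hoxa7), against 7.42% of all genes, and 8 in SRF-RELA (all of HoxB), against 10.8%. Any difference among the 4 lines was called for 7 HoxB genes (all but Hoxb3) with the block, where 3.5% of all genes were called.

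In SRF-ICA1L the block fit gave log2 fold changes of -3.32 ± 0.48 for Hoxb9 (adjusted p = 0.0110 by edgeR, SE after each ±), -3.00 ± 0.54 for Hoxb8, -2.91 ± 0.66 for Hoxb7 and -2.71 ± 0.47 for Hoxb13. It gave -2.22 ± 0.40 for Hoxb6, -2.16 ± 0.40 for Hoxb5, -2.10 ± 0.47 for Hoxb3 and -1.42 ± 0.35 for Hoxb4, whose adjusted p of 0.0577 missed the threshold. The 7 called genes had adjusted p from 0.0110 to 0.0451. All 8 HoxB genes were lower than in pMSCV in all 3 replicate numbers, where 18.1% of all genes were. The HoxB sum was at 25.5%, 13.4% and 9.04% of that of the same-numbered pMSCV library. Without regard to numbers, the groups did not overlap for Hoxb5 and Hoxb8, where 5.54% of all genes were lower without overlap. Single libraries decided the count of calls: leaving out pMSCV replicate 1 left 1 Hox gene called, and leaving out replicate 1, 2 or 3 of SRF-ICA1L left 2, 0 and 3.

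In SRF-RELA the block fit gave -3.41 ± 0.70 for Hoxb7 (SE), -3.12 ± 0.47 for Hoxb9, -3.00 ± 0.49 for Hoxb13 and -2.73 ± 0.53 for Hoxb8. The lower-numbered genes had -2.08 ± 0.37 (Hoxb4), -2.07 ± 0.48 (Hoxb3), -2.02 ± 0.40 (Hoxb6) and -1.88 ± 0.39 (Hoxb5). Adjusted p by edgeR ran from 0.0062 (Hoxb9) to 0.0308 (Hoxb3). All 8 were lower than pMSCV in all 3 replicate numbers, where 20.3% of all genes were, and the HoxB sum was at 17.5%, 22.7% and 11.8% of the same-numbered pMSCV library. The groups did not overlap for 7 of the 8 (all but Hoxb6), where 5.91% of all genes were lower without overlap. Leaving out pMSCV replicate 1 left 4 Hox genes called, and leaving out replicate 1, 2 or 3 of SRF-RELA left 1, 5 and 2.

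**Figure D3:**
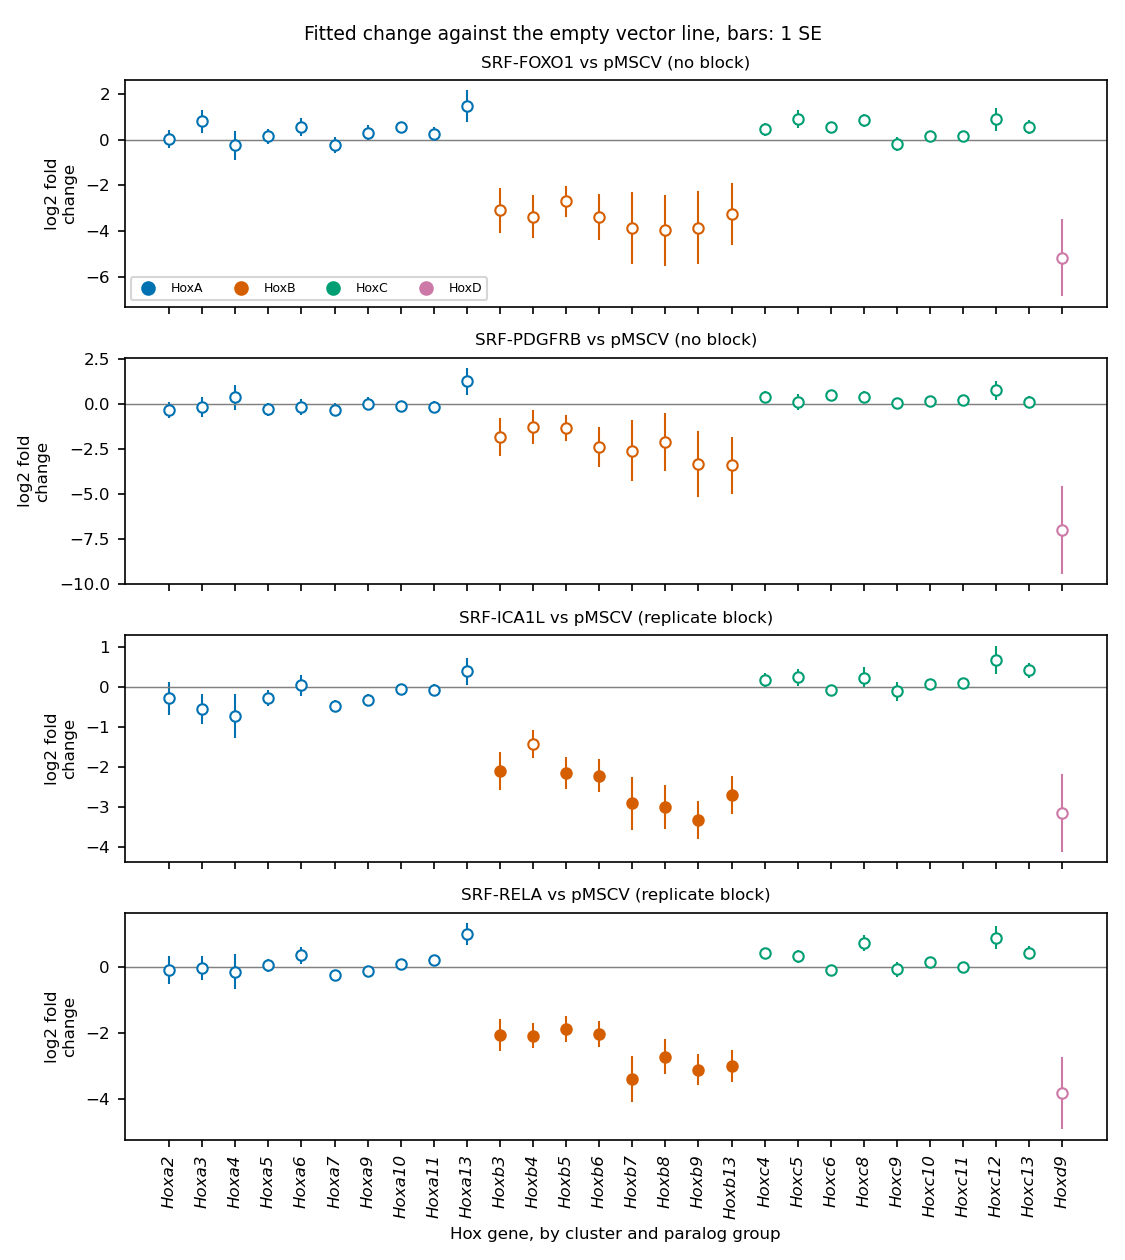
Fitted log2 fold change against pMSCV for 28 of the 29 Hox genes, in the fit without a replicate term for SRF-FOXO1 and SRF-PDGFRB and with replicate number as a block in 12 libraries for SRF-ICA1L and SRF-RELA; bars are 1 SE, filled points have an adjusted p under 0.05 and colours give the cluster. All HoxB points lie below 0 in the 4 panels, with 7 filled in SRF-ICA1L and 8 in SRF-RELA.

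Wild-type SRF gave smaller HoxB differences that passed no test. The HoxB median log2 fold change was -0.81 without the block and -1.01 with it, and 0 of 29 Hox genes were called by edgeR in either fit (0.00664% and 0.0137% of all genes) or by DESeq2 (0.0266% of all genes, and 2.33% with the block). No Hox gene had an unadjusted p under 0.05 without the block, where 3.34% of all genes did. With the block 5 did, namely Hoxb3, Hoxb7, Hoxb9, Hoxb13 and Hoxd9, all lower, where 7.51% of all genes were lower at that threshold. The median without the block was -0.21 without pMSCV replicate 1, and -1.78 and -0.47 without SRF replicate 1 or 3. The HoxB sum in SRF was at 59.4%, 72.6% and 35.9% of that of the same-numbered pMSCV library. In all 3 replicate numbers 6 of 8 HoxB genes were lower (all but Hoxb5 and Hoxb6), where 17.2% of all genes were. The lowest p-values without the block were those of Hoxd9 (-1.87 ± 1.24, SE), Hoxa2 (-0.60 ± 0.41) and Hoxb3 (-1.25 ± 0.88), each with an adjusted p of 0.990 by edgeR. With the block the 3 lowest p-values were those of Hoxb13 (-1.15 ± 0.43, adjusted p = 0.286 by edgeR), Hoxb3 (-1.13 ± 0.44) and Hoxd9.

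SRF-PDGFRB had 2 libraries that disagreed on HoxB. Replicate 1 held 2.43 CPM and replicate 2 held 16.8 CPM, both below the 33.2 to 108 CPM of the pMSCV libraries. No Hox gene was called by edgeR (0 of 29, where 0.0199% of all genes were) or by DESeq2 (0.501% of all genes), and by edgeR 3 had an unadjusted p under 0.05, where 7.7% of all genes did. The groups did not overlap for Hoxb7, Hoxb8, Hoxb9 and Hoxb13, where 7.23% of all genes were lower without overlap. The HoxB median log2 fold change of -2.24 became -4.62 without SRF-PDGFRB replicate 2, -1.40 without its replicate 1 and -1.45 without pMSCV replicate 1. Hoxc6, with one of the 3 lowest p-values, had 18.4 and 17.7 CPM against 11.2 to 13.3 CPM in pMSCV (0.53 ± 0.24, SE, adjusted p = 0.615 by edgeR).

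Against wild-type SRF, the HoxB genes were again the lower cluster in each fusion, but these comparisons share the SRF libraries with each other and their own values are given side by side. Without a block the HoxB median was -2.58 in SRF-FOXO1, -1.59 in SRF-RELA, -1.44 in SRF-PDGFRB and -1.29 in SRF-ICA1L. Single libraries moved the last 3: without SRF replicate 1 they were -0.77, -0.48 and -0.53. The SRF-ICA1L median was -3.04, -0.86 and -0.81 without its replicate 1, 2 or 3, and the SRF-PDGFRB median was -0.59 and -3.79 without its replicate 1 or 2. In that order of lines, edgeR called 0 of 29 Hox genes in each, where 0.00664%, 0.00664%, 0.0531% and 0% of all genes were called. The Hox genes with an unadjusted p under 0.05 numbered 10, 1, 2 and 1, against 19.2%, 3.21%, 5.03% and 1.56% of all genes. The lowest p in SRF-FOXO1 belonged to Hoxc5 (1.26 ± 0.39, SE), Hoxb5 (-2.16 ± 0.67) and Hoxc6 (0.66 ± 0.21), with adjusted p of 0.185, 0.185 and 0.189. In SRF-RELA they belonged to Hoxc8 (0.66 ± 0.30), Hoxb5 (-1.34 ± 0.65) and Hoxc12 (0.92 ± 0.49). In SRF-PDGFRB low p-values belonged to Hoxc6 (0.66 ± 0.23) and Hoxd9, and in SRF-ICA1L to Hoxb5 (-1.64 ± 0.65) and Hoxc5 (0.60 ± 0.39). SRF-FOXO1 libraries lay wholly below SRF libraries for Hoxb4, Hoxb5 and Hoxb6, where 18.3% of all genes did. DESeq2 called 3 in SRF-FOXO1 (Hoxb5 lower, Hoxc5 and Hoxc6 higher), against 4.3% of all genes, and 0 in SRF-RELA (0.0692% of all genes), SRF-PDGFRB (0.386%) and SRF-ICA1L (0.0133%).

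SRF-FOXO1 libraries also deviated together with same-numbered SRF libraries, and a block over these 6 libraries called Hoxb6 as lower (-2.70 ± 0.35, SE, adjusted p = 0.0456 by edgeR), where 0.824% of all genes were called lower. This call was lost without replicate 1 or replicate 3. Hoxb8 (-3.58 ± 0.61, adjusted p = 0.0514) and Hoxb7 (-3.05 ± 0.58, adjusted p = 0.0525) came next. With the block in 12 libraries, edgeR called no Hox gene against SRF in SRF-RELA (0.656% of all genes) or SRF-ICA1L (0.0956% of all genes). Lower with an unadjusted p under 0.05 were 7 HoxB genes in SRF-RELA, against 7.53% of all genes, and 6 in SRF-ICA1L, against 3.26%. Hoxb9 had the lowest p in both, at -2.32 ± 0.46 (adjusted p = 0.134) in SRF-ICA1L and -2.12 ± 0.46 (adjusted p = 0.0691) in SRF-RELA. DESeq2 with the block called 3 in SRF-ICA1L (Hoxb6, Hoxb8 and Hoxb9), against 1.36% of all genes, and 4 in SRF-RELA (Hoxb4, Hoxb6, Hoxb9 and Hoxb13), against 4.67%. All 8 HoxB genes were lower than in SRF in all 3 replicate numbers in both lines, where 17.9% and 21.9% of all genes were. The HoxB sum was at 42.9%, 18.5% and 25.1% of that of the same-numbered SRF library in SRF-ICA1L and at 29.4%, 31.2% and 32.8% in SRF-RELA.

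HoxB levels also differed by replicate number, as did those of many genes in the table. The share of variance between replicate numbers was lower for HoxB than for all genes, HoxA or HoxC. With group in the model, 19 of 29 Hox genes differed by replicate number in the 12 paired libraries, where 52% of all genes did. They were 7 HoxB genes (all but Hoxb5), 6 HoxA and 6 HoxC genes, across all 3 clusters. Of the variance of log2 CPM of a HoxB gene in these libraries, a median of 47.6% lay between lines and 44.1% between replicate numbers. Over all genes the medians were 19.5% and 49.6%, for HoxA 14.9% and 65.9%, and for HoxC 20.6% and 53.0%. Hoxb5 had the largest group share among HoxB genes, 73.0%, and Hoxb13 the smallest, 41.9%.

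HoxB genes also varied together from library to library. Pearson's r of log2 CPM between pairs of HoxB genes over the 17 libraries had a median of 0.854 over 28 pairs (0.674 to 0.980). For HoxA the median was 0.285 over 55 pairs and for HoxC 0.458 over 36 pairs. Hoxb9 and Hoxb8, neighbours in the cluster, had the highest r (0.980), Hoxb9 and Hoxb13 had 0.942, and Hoxb9 and Hoxb3 had 0.740. These values describe the libraries, which share lines, replicate numbers and total depth, and carry no test.

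The balance within HoxB differed between libraries too, with its lowest values in replicate 3. The genes Hoxb7, Hoxb8, Hoxb9 and Hoxb13 made up 62.3% to 76.0% of HoxB counts in the replicate 1 libraries. In replicate 2 libraries they ran from 49.3% in SRF-PDGFRB, with SRF-FOXO1 next, to 80.6% in pMSCV, which was above every replicate 1 library. In replicate 3 libraries they made up 48.0% in pMSCV, 40.5% in SRF, 17.2% in SRF-RELA and 8.82% in SRF-ICA1L. In SRF-FOXO1 replicate 3 they had 0 of 16 HoxB counts, for which a floor of 3 counts gives a share of up to 18.8%, while the exact binomial 95% interval reaches 20.6%. The same intervals were 44.4 to 51.7% for pMSCV and 9.98 to 26.8% for SRF-RELA. This division of the cluster was chosen after the values were seen and has no test.

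Among HoxA genes none was called between lines by edgeR without a block or with the block in 12 libraries. Hoxa9, the most abundant, had 55.8, 33.7 and 36.5 CPM in pMSCV and 69.8, 35.9 and 49.4 CPM in SRF-FOXO1, overlapping ranges. Hoxa10, which patterns the limb and the uterus, had 34.9, 39.0 and 26.6 CPM in pMSCV and 56.0, 30.8 and 62.3 CPM in SRF-FOXO1 (0.57 ± 0.22, SE, adjusted p = 0.159 by edgeR). Hoxa13, a gene of the digits and the urogenital tract, had 0.922, 2.25 and 0.608 CPM in pMSCV and 2.79, 3.47 and 4.24 CPM in SRF-FOXO1. Those groups did not overlap. Without overlap 11.4% of all genes were higher in SRF-FOXO1. DESeq2 with the block also called Hoxa7 lower in SRF-ICA1L, where edgeR's adjusted p was 0.116 (-0.49 ± 0.15).

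HoxC genes were not called between lines by edgeR in these fits either. Hoxc10 was the steadiest member over the libraries, from 41.4 to 66.5 CPM, a ratio of 1.61 between the highest and the lowest. Hoxc8, a thoracic gene, had 1.98, 4.23 and 2.43 CPM in pMSCV, 5.36, 4.03 and 6.07 CPM in SRF-FOXO1 (0.84 ± 0.30, SE, adjusted p = 0.140 by edgeR) and 4.31, 5.11 and 4.43 CPM in SRF-RELA (0.68 ± 0.30, adjusted p = 0.594 by edgeR). Hoxc6, also thoracic, was at 17.3, 15.9 and 21.1 CPM in SRF-FOXO1, above all pMSCV libraries. Hoxc12, the lowest HoxC gene, had 0.830, 0.661 and 0.935 CPM in pMSCV and 1.42, 1.64 and 1.45 CPM in SRF-RELA. Hoxc8 and Hoxc12 were higher without overlap in SRF-RELA, where 5.19% of all genes were. The HoxC median log2 fold change against pMSCV was 0.17 in SRF-ICA1L and 0.33 in SRF-RELA under the block, where HoxA had -0.28 and -0.03. Hoxc5 and Hoxc10 share exon bases on the same strand (5.37% of Hoxc5 and 8.70% of Hoxc10), so their counts may be mixed to that extent.

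Hoxd9, the single HoxD gene, was near the limit of detection. It had 26, 14 and 8 counts in pMSCV, 12, 1 and 0 in SRF, 1, 0 and 0 in SRF-FOXO1, 6, 0 and 0 in SRF-ICA1L, 0 and 0 in SRF-PDGFRB and 0, 3 and 0 in SRF-RELA. All pMSCV libraries were above every fusion library. Hoxd9 met the filter of 10 counts in 3 libraries only through pMSCV (26 and 14 counts) and SRF (12). Its separation from the fusions cannot be read apart from that filter. With 3 counts per library as the floor, Hoxd9 in SRF-FOXO1 was at least 5.40-fold below the pMSCV mean. The same bound was 5.38-fold in SRF-PDGFRB and 5.17-fold in SRF-RELA. The bounds rest on the pMSCV mean of 0.73 CPM, and the lowest pMSCV library was at 0.374 CPM. Hoxd9 was called in none of these 3 lines (adjusted p of 0.119, 0.531 and 0.530 by edgeR without the block, and 0.0657 in SRF-RELA with it).

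**Figure D4:**
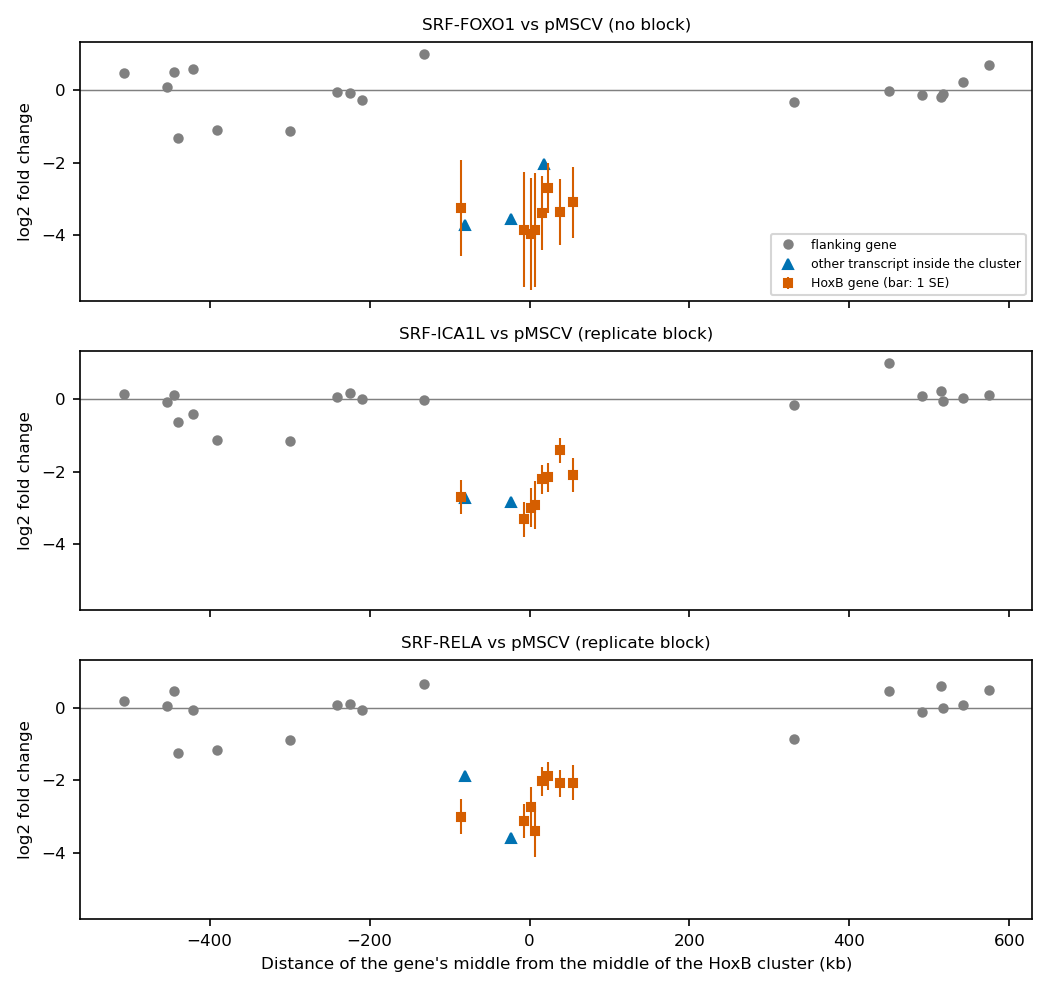
Fitted log2 fold change against pMSCV for HoxB genes (squares, bars of 1 SE), other transcripts inside the HoxB cluster (triangles) and flanking genes within 500 kb of its edges (circles), by distance of the gene's middle from the middle of the cluster in kb. In SRF-FOXO1, SRF-ICA1L and SRF-RELA the low values lie inside the cluster. None of the 18 flanking genes was called, and in SRF-FOXO1 no HoxB gene was called either.

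Genes on either side of HoxB had median fold changes near 0. Within 500 kb of the cluster's edges the table held 18 other genes. By edgeR, 0 of 18 were called in SRF-FOXO1 without the block, or in SRF-ICA1L and SRF-RELA with it. In that order of lines, 0.71%, 2.99% and 6.48% of all genes were called. In SRF-FOXO1 no HoxB gene was called in this fit either, so the count there cannot set the flanks apart from the cluster. The flanking medians of log2 fold change, in the same order of lines, were -0.06, 0.02 and 0.07, against -3.38, -2.46 and -2.40 for HoxB. The lowest flanking values in these lines were -1.32 (Gngt2 in SRF-FOXO1), -1.16 (Igf2bp1 in SRF-ICA1L) and -1.24 (Gngt2 in SRF-RELA). SRF-PDGFRB, fitted without the block, had a flanking median of -0.04, against -2.24 for HoxB. No flanking gene was called there, where 0.0199% of all genes were. Its lowest flanking values were -2.46 (Gngt2), -2.02 (Ttll6) and -1.82 (Igf2bp1), around its HoxB median. The difference between the cluster and its flanks was not tested as such. Inside the cluster, the transcript Gm53, between Hoxb13 and Hoxb9, fell in SRF-RELA (-3.58, adjusted p = 0.0336, edgeR with the block). It had -2.85 in SRF-ICA1L (adjusted p = 0.0830) and -3.54 in SRF-FOXO1 (adjusted p = 0.257). Beside HoxC, Pde1b, a phosphodiesterase gene 466 kb beyond the cluster, fell in both lines with the block (-1.85 in SRF-ICA1L, adjusted p = 0.0229, and -2.02 in SRF-RELA, adjusted p = 0.0105), and it was the 1 called gene of 23 there. The HoxA flanks held 4 genes and the HoxD flanks 3, none of them called.

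TALE homeodomain proteins (PBX, MEIS and PKNOX) bind DNA together with HOX proteins. These 9 genes and the lists that follow were all chosen with results of these data known. Pknox2 fell in SRF-RELA (-1.63 ± 0.32, SE, adjusted p = 0.0156 by edgeR with the block), and its means were 11.7 CPM in pMSCV and 3.99 CPM in SRF-RELA. In SRF-ICA1L Meis1 had 0.10 and Meis2 -0.38, in SRF-RELA they had 0.16 and -0.43, and neither was called. The median over the 9 genes was -0.17 in SRF-ICA1L and -0.03 in SRF-RELA, against 0.01 over all genes in each.

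Polycomb and Trithorax genes hold Hox clusters silent or active. With the block edgeR called 6.48% of all genes in SRF-RELA and 2.99% in SRF-ICA1L, and the counts of this and the other lists read against these shares. Of 23 Polycomb genes, edgeR with the block called 0 in SRF-ICA1L, where 4 had an unadjusted p under 0.05, and 2 in SRF-RELA. These were Phc1, which fell (-0.51 ± 0.12, SE, adjusted p = 0.0307 by edgeR), and Cbx6, which rose (0.49 ± 0.12, adjusted p = 0.0442). Ezh2, the methyltransferase of the complex, had -0.05 ± 0.14 in SRF-ICA1L, and means of 89.7 CPM in pMSCV and 84.6 CPM in SRF-ICA1L; Cbx2 had 23.9 CPM and 21.2 CPM. None of 13 Trithorax and demethylase genes was called by edgeR in either line with 1 and 2 at an unadjusted p under 0.05. The methyltransferase Kmt2a had 112 ± 20.4 CPM in the control against 116 ± 23.8 CPM in SRF-RELA, and the demethylase Kdm6b 70.0 ± 29.6 CPM against 75.1 ± 48.1 CPM (SD, n = 3 each).

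Retinoic acid switches Hox genes on in embryos. Of 14 retinoic acid genes in the table, Rxra, a shared receptor subunit, rose in SRF-RELA with the block (0.66 ± 0.12, SE, adjusted p = 0.0107 by edgeR) and was the only one called in SRF-ICA1L or SRF-RELA. Rarb, a receptor that retinoic acid induces, had 1.95 ± 1.90 CPM in the control against 1.08 ± 0.258 CPM in SRF-RELA (SD, n = 3). Of 20 other factors of body position 8 were in the table. Lbx1, a marker of muscle precursors that migrate into the limb, fell in SRF-ICA1L (-2.79 ± 0.23, adjusted p = 0.000906) and SRF-RELA (-2.64 ± 0.23, adjusted p = 0.000995). It was also lower than in SRF (-1.86 ± 0.23, adjusted p = 0.0218, and -1.71 ± 0.23, adjusted p = 0.0133). Shox2, a gene of the proximal limb, rose in SRF-RELA (0.43 ± 0.11, adjusted p = 0.0485). Tbx15, another limb gene, had 33.3 ± 3.35 CPM in the control against 33.6 ± 3.07 CPM in SRF-RELA (SD, n = 3). Without the block none of these lists had a called member in any fusion against pMSCV in edgeR.

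Myoblast markers were lower in the same lines as HoxB. The summed level of the 6 markers (Myod1, Myf5, Cdh15, Msc, Des and Chrna1) was 1210 to 1660 CPM in pMSCV, 608 to 1230 CPM in SRF and 164 to 210 CPM in SRF-FOXO1. It was 369 to 961 CPM in SRF-ICA1L, 278 to 605 CPM in SRF-RELA and 83.3 and 1860 CPM in the SRF-PDGFRB libraries, the second of which also had the higher HoxB sum. With the block, 4 of 6 markers fell in SRF-ICA1L and 6 of 6 in SRF-RELA, with medians of -1.21 and -1.65. In SRF-FOXO1 without it, edgeR called 0, all 6 had an unadjusted p under 0.05, and the median was -2.79. Within SRF-RELA, SRF-ICA1L, SRF and pMSCV, replicate 3 had more marker RNA and less HoxB than replicate 1, in pMSCV 1660 against 1210 CPM of marker RNA and 34.4 against 108 CPM of HoxB. Within SRF-FOXO1, replicate 3 had less of both than replicate 1. The part of myoblast state in the HoxB levels was not tested.

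Markers of other cell types were compared as well. Of 7 fibroblast markers 6 were in the table, summing to 134 to 891 CPM in pMSCV and 217 to 2290 CPM in SRF-FOXO1, and Thy1 was not. Of 10 genes of differentiated muscle 8 were in the table, summing to 115 to 240 CPM in pMSCV and 29.6 to 80.9 CPM in SRF. In the fusions they summed to 28.2 to 52.6 CPM (SRF-FOXO1), 42.3 to 76.0 CPM (SRF-ICA1L), 32.4 to 200 CPM (SRF-RELA) and 9.64 to 462 CPM (SRF-PDGFRB). The lower sums were thus not particular to the fusion lines. With the block Myog and Myh3 fell in SRF-ICA1L, and these and Mymk in SRF-RELA. The endothelial markers in the table summed to at most 2.81 CPM in any library and the blood marker Cd68 to at most 5.33 CPM. The part of these markers in the HoxB levels was not tested.

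**Figure D5:**
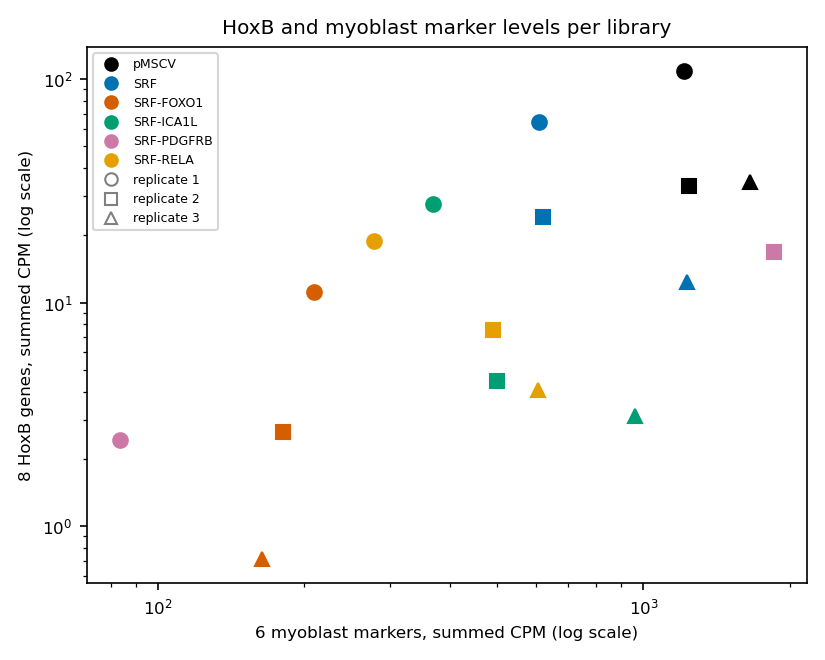
Summed CPM of the 8 HoxB genes against that of 6 myoblast markers in each of the 17 libraries, both on log scales; colours give the line and shapes the replicate number. Within a replicate number the fusion libraries of SRF-FOXO1, SRF-ICA1L and SRF-RELA lie lower on both axes than pMSCV, and replicate 1 libraries lie higher in HoxB than replicate 3 libraries of the same line.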

How the data were processed

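RNA was sequenced from 17 libraries of C2C12 lines; group and replicate number came from the titles. A DNase step preceded a stranded mRNA library kit, per the labels' protocols. FastQC 0.11.8, Trimmomatic 0.39, HISAT2, featureCounts, Subread 2.0.0 and the build GRCm38 are named in the submitters' processing notes; the annotation and strand setting are not given in the sources used here. The values are raw gene counts, as deposited by the authors. The table had been filtered: every gene reached 10 counts in at least 3 libraries. Reads from an introduced construct may count towards the mouse gene.

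Counts were scaled by TMM and tested over all 15062 genes by the quasi-likelihood test of edgeR 4.0.16 (R 4.3.3), with all 17 libraries in 1 fit, a term for group and no block. P-values were adjusted by Benjamini-Hochberg within each comparison and genes called under 0.05. The standard error (SE) was the size of the log2 fold change over the square root of F. DESeq2 1.42.0 was an alternative. The filter in edgeR removed no gene. Gene positions, exon lengths and neighbours came from GENCODE vM21 (GRCm38), and promoters from RefSeq. Libraries of a group differed beyond counting error in every pair (chi-square over its degrees of freedom at least 29.8), so all counted as replicates. The biological coefficient of variation over all genes was 36.5% (18.5% with the block in 12 libraries). For genes with many counts, differences between libraries rather than depth therefore set the precision. For Hoxd9, and for HoxB genes with few counts in the fusion lines, counting error limits it too. Intervals cover counting error only. The scripts were tested on simulated data.

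Pairing by replicate number was checked by correlating, across genes, deviations from the group means. Same-numbered libraries of pMSCV, SRF-RELA, SRF-ICA1L and SRF had r of 0.392 to 0.789 and different numbers at most 0.114, so the numbers pair these 12 libraries. SRF-FOXO1 paired with SRF (0.220 to 0.330) but not with pMSCV (-0.195 to 0.170). The pairing comes from these correlations and not from the labels.

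Named members were those called in either fit, the 3 with the lowest p in each comparison, the highest and lowest of each cluster and those near the floor of 3 counts. Some genes that this rule or the lists take in are counted but not reported here by name. The members, lists and tests were chosen with earlier results of these data known.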

Additional observations from a re-analysis of the deposited data

How the results depend on the processing

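The HoxB median stayed below 0 in every comparison and alternative run. Medians of the other clusters close to 0, and the value of Hoxd9, changed sign in some: in SRF-ICA1L against SRF, Hoxd9 went from -1.02 to 1.83 without SRF replicate 1, and in SRF-RELA against pMSCV the HoxA median went from 0.0091 to -0.028 with the block. Counts of called Hox genes moved as follows from 0 without the block. In SRF-FOXO1 against pMSCV, DESeq2 called 5 and a block for replicate number in all 17 libraries called 8, although the numbers do not pair these lines; leaving out each library gave 0 to 2. With replicate number as a block in 12 libraries, the counts were 7 in SRF-ICA1L and 8 in SRF-RELA against pMSCV; leaving out each library from these, alternatives chosen after seeing the data, gave 0 to 7 and 1 to 9. In SRF-FOXO1 against SRF, DESeq2 called 3 and the block over the 2 groups 1, with 0 to 1 when a replicate was left out. Any difference among the 6 groups was called for 2 by DESeq2 and for 7 with the block in the 12 libraries of 4 groups. For replicate number, 19 were called in 12 libraries, 5 over all 17, and 15 to 19 when a library was left out. The other scalings and filters left every count within 1.5 times, and no scaling moved the median of all genes by more than 0.1. DESeq2 against SRF went from 0 without the block to 4 in SRF-RELA and 3 in SRF-ICA1L under it. In edgeR the block in 12 libraries changed no other call between groups. The cause of these differences was not tested. Low counts of Hoxd9, and of HoxB genes in replicate 3 of the fusion lines, limit their fold changes.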
